A study of Mus musculus with 18 samples.

Results

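Blood coagulation and fibrinolysis genes were followed in cardiac fibroblasts of the neonatal mouse heart. The 9 genes were Thbd, Procr, Tfpi, F3, Serpine2, Plat, Plau, Plaur and Serpinf1, taken by name from a table of counts for 55453 gene symbols, and all 9 were measured and passed the filter on low counts. The set was chosen by pathway with the baseline levels of these genes at P10 and P2 already known, Thbd among them, so the baseline difference between the ages is described below without a test.

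The study compared apical resection, a surgical removal of the tip of the ventricles, at P2 (postnatal day 2), when the mouse heart regenerates, and at P10, when it does not. Bulk RNA-seq was made from GFP+ cells sorted by flow cytometry from the apical part of the ventricles, after removal of atria and valves. All 18 libraries came from Tcf21-MerCreMer/+; Rosa-mTmG/+ pups on C57BL/6J given 4-hydroxytamoxifen at P1, so that Cre expressed from Tcf21, a gene of resident cardiac fibroblasts, switched these cells and their progeny from tdTomato to membrane GFP. There were 6 groups with n = 3 libraries each, namely P2 baseline and P10 baseline from un-manipulated pups, and P2 sham, P2 resected, P10 sham and P10 resected, each collected 3 days after surgery at P5 or P13. In the sham surgery the heart was exposed and put back. Cells that began to express Tcf21 after the P1 dose were not labelled, and the number and sex of the pups behind each library were not given in the sources used here. Hearts collected at P10 and P13 were also digested for longer than those collected at P2 and P5, so age and digestion time cannot be told apart.

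Coagulation starts when tissue factor, the product of F3, meets factor VII in the blood and leads to thrombin. Thrombomodulin (Thbd) is a membrane protein that binds thrombin and turns it toward activation of protein C, which is held at the cell surface by the endothelial protein C receptor (Procr). The tissue factor pathway inhibitor (Tfpi) blocks the first step, and protease nexin 1 (Serpine2) inhibits thrombin and plasminogen activators. Clots are dissolved by plasmin, which tissue plasminogen activator (Plat) and urokinase (Plau, with its receptor Plaur) release from plasminogen. Serpinf1 encodes pigment epithelium-derived factor, a secreted serpin that does not inhibit proteases. Thrombomodulin and the protein C receptor are best known from endothelium, and tissue factor from the cells around vessels.

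F3 and Serpinf1 were the pair of genes called in the same comparisons as Thbd that had an entry in the RefSeq promoter table (GRCm38.p6), which held 6 of the 9 genes. Their sequences, from 250 bases before to 50 after the start, are shown on the strand of the gene to set side by side the letters upstream of 2 genes that were higher together at P10. The RefSeq start of Serpinf1 lies inside the gene coordinates given below, so part of its upstream letters falls within those coordinates. Capitals mark matches on either strand to any of 5 motifs. The AP-1 motif was searched as TGANTCA, where N stands for any base. The GC box, known to be bound by Sp1, was searched as GGGCGG. The related CACCC box, known to be bound by members of the KLF family, was searched as CCACCC. The TATA box, which places the start of transcription in some promoters, was searched as TATAAA. The last motif, a core element of many nuclear receptors, was searched as AGGTCA, and no match of one motif was barred from overlapping another.
F3, chr3:121723287-121723586, plus strand: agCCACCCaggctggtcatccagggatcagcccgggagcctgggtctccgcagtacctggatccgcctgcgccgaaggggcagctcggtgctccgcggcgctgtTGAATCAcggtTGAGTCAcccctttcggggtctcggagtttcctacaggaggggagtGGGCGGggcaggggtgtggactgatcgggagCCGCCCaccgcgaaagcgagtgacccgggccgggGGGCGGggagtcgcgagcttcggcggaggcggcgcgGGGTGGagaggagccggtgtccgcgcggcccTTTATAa
Serpinf1, chr11:75422574-75422873, minus strand: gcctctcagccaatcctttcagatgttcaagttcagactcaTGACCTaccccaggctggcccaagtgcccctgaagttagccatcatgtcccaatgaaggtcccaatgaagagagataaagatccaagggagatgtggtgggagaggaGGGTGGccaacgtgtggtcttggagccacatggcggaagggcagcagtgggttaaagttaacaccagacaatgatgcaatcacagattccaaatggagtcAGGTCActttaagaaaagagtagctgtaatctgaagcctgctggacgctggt

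The F3 sequence was rich in G and C (70.3%), and the Serpinf1 sequence was not (50.7%). F3 held 2 AP-1 matches, which began 146 and 135 bases before the start, 3 GC boxes, 2 CACCC boxes and 1 TATA match on the minus strand after the start. Serpinf1 held none of the AP-1, GC box or TATA letters, 1 CACCC box and 2 nuclear receptor elements. Of 32851 promoters of the same length, 7.81% held an AP-1 match, 35.7% a GC box, 31.5% a CACCC box, 13.6% a TATA match and 16.3% a nuclear receptor element. The CACCC box was the only one of these motifs with a match in both sequences, and a match describes letters, not binding.

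Between 10462737 and 22980554 reads were counted per library, so that 3 counts, the upper limit that a count of 0 allows, came to 0.128 to 0.296 CPM. Levels below are CPM, counts scaled by library size and TMM factor, and the intervals and limits cover counting error only where they come from counts. The sorted cells held the markers of the labelled cell type, with Tcf21 at 251 to 331 CPM and Pdgfra at 367 to 538 CPM as means of the 6 groups. The endothelial markers Pecam1 (10.7 to 28.2 CPM) and Cdh5 (2.7 to 11.9 CPM) were present in each group. In bulk RNA, a change in the number of cells of one kind cannot be told apart from a change in RNA per cell.

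**Figure D1:**
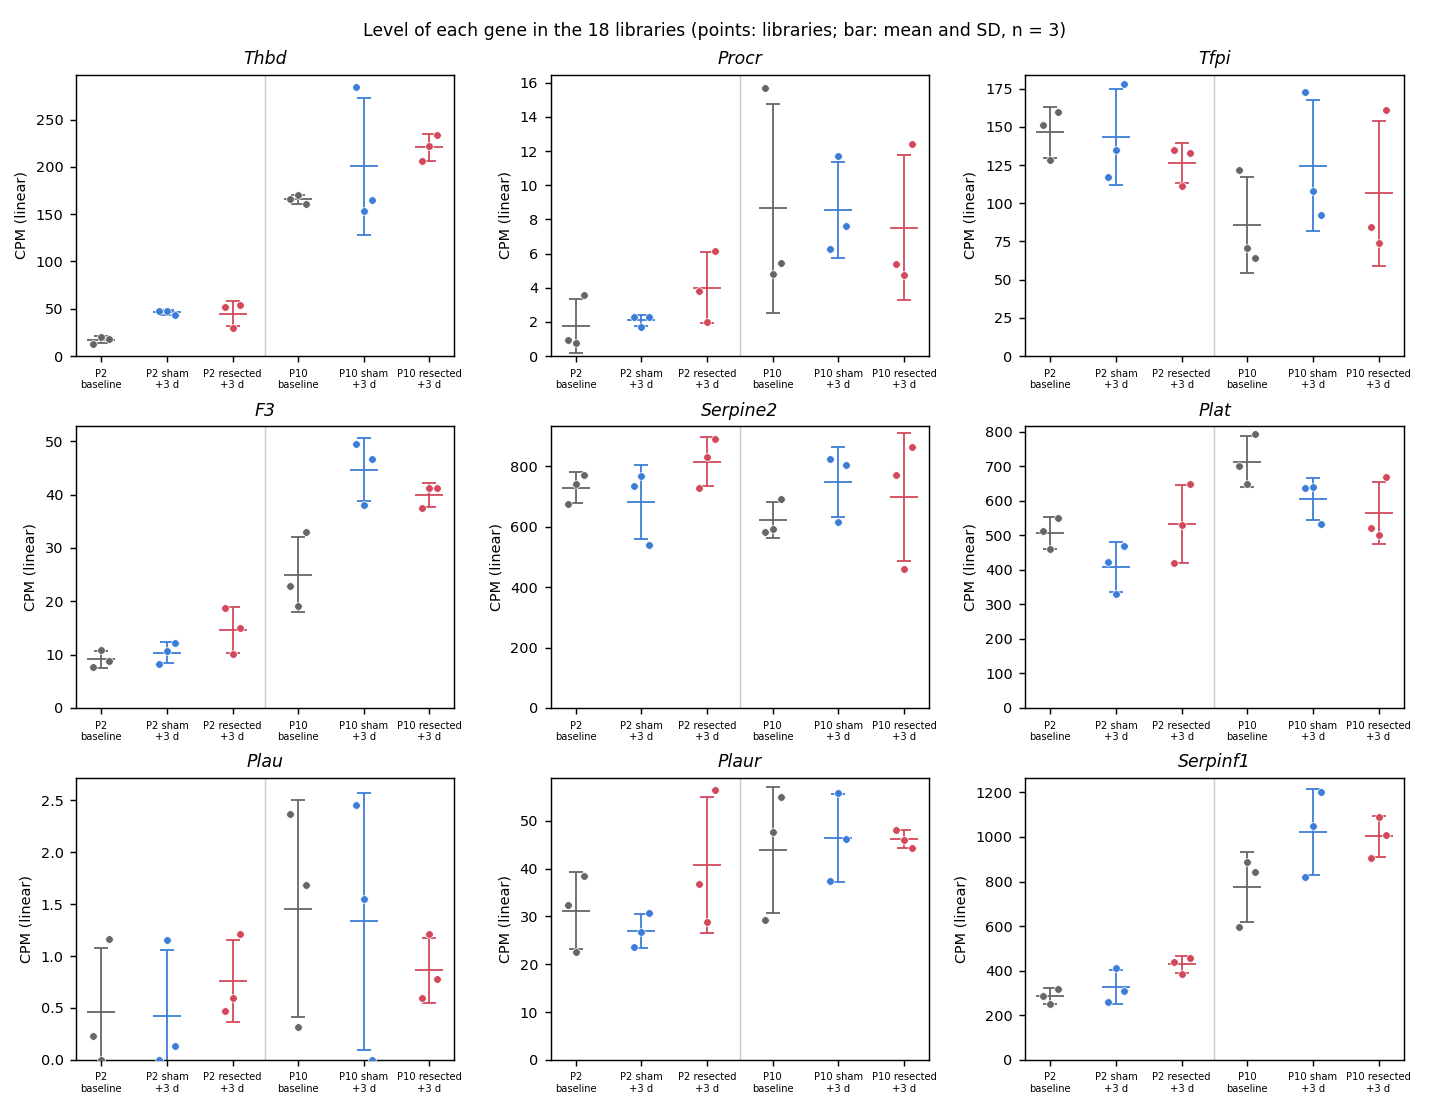
Level in CPM (linear axis from 0, a separate scale for each gene) of the 9 genes in the 18 libraries, by group. Points are libraries and bars give the mean and SD (n = 3). In Thbd, F3 and Serpinf1 all P10 libraries lie above all P2 libraries, while in Serpine2 the ages overlap.

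Scaled to the length of the exons, so that genes can be compared with each other, the levels of the 9 genes differed widely. Serpinf1 was the most abundant on this scale, with group means of 122 to 434 CPM per kilobase, followed by Serpine2 (75.0 to 98.4) and Plat (65.4 to 114). Without the scaling, Serpine2 was above Serpinf1 in the P2 groups (681 to 815 against 286 to 429 CPM), so this order depends on the exon lengths used. Thbd moved through the middle of the order, from 4.68 CPM per kilobase at P2 baseline, below Plaur (10.3 to 17.7) and Tfpi (15.7 to 26.8), to 59.3 at P10 resected, above both. F3 ranged from 3.61 to 17.7 CPM per kilobase. Procr (0.87 to 4.26) and Plau (0.18 to 0.616) were the lowest.

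**Figure D2:**
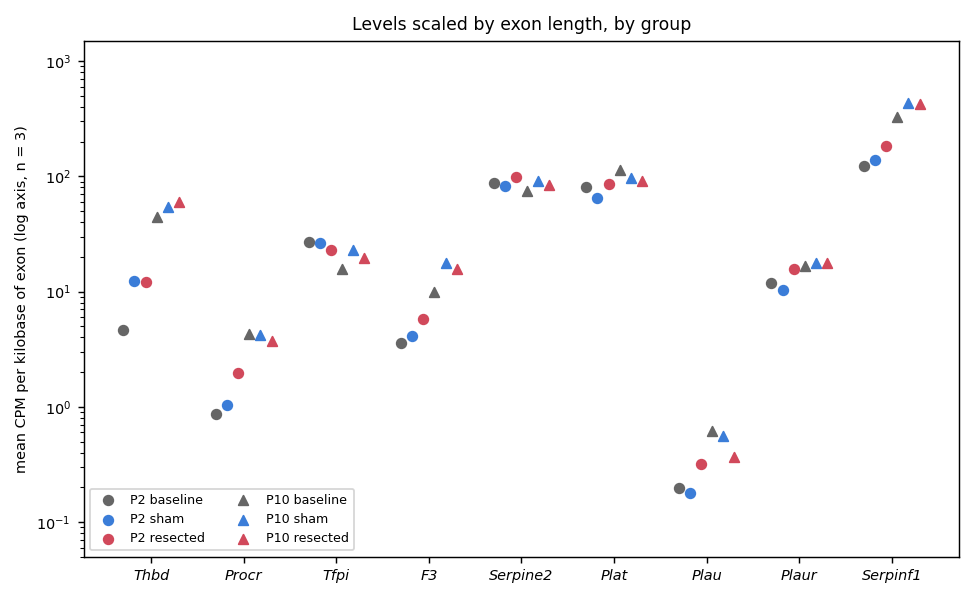
Mean CPM per kilobase of exon (log axis, n = 3) of the 9 genes in the 6 groups; circles are P2 groups and triangles are P10 groups. Serpinf1, Serpine2 and Plat are highest and Plau is lowest, and Thbd moves from 4.68 at P2 baseline to 59.3 at P10 resected.

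Thbd, which lies in a single exon at chr2:148404466-148408188 on the minus strand (GRCm38), was higher at P10 than at P2 in every setting measured. At P2 baseline its levels were 13.2, 20.6 and 18.5 CPM (17.4 ± 3.83, SD, n = 3), and at P10 baseline 166, 170 and 161 CPM (165 ± 4.87). At P2 sham they were 47.4, 48.1 and 43.5 CPM (46.3 ± 2.5), against 284, 153 and 165 CPM at P10 sham (201 ± 72.4). At P2 resected they were 51.9, 29.6 and 53.6 CPM (45.0 ± 13.4), against 206, 222 and 234 CPM at P10 resected (221 ± 14.2). The lowest P10 library was thus above the highest P2 library. In the order of the group means, P2 baseline stood apart below P2 resected and P2 sham, these overlapped each other, and above them the 3 P10 groups began, of which P10 sham overlapped both of the others.

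Thbd was 4.34-fold higher at P10 sham than at P2 sham (log2 fold change 2.12 ± 0.27, SE, adjusted p = 0.000375, edgeR quasi-likelihood test over 16170 genes). After resection it was 4.91-fold higher at P10 (2.29 ± 0.27, adjusted p = 0.000354). The first P10 sham library was the highest of all, and without it the log2 fold change between the sham groups was 1.78 (adjusted p = 0.00181). At baseline the P10 mean was 9.50 times the P2 mean (log2 ratio 3.25), given as a description since this contrast chose the genes.

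F3 (chr3:121723537-121735048, plus strand) was also higher at P10. Its levels were 8.22, 10.7 and 12.1 CPM at P2 sham and 49.4, 38.0 and 46.6 CPM at P10 sham. At P2 resected they were 18.7, 10.1 and 15 CPM, and at P10 resected 37.4, 41.2 and 41.2 CPM. The groups did not overlap in either setting. The sham difference was 4.32-fold (2.11 ± 0.31, SE, adjusted p = 0.000784, edgeR) and the resected difference 2.73-fold (1.45 ± 0.30, adjusted p = 0.0248), and these 2 log2 values differed by -0.66 (SE 0.42, adjusted p = 1). The call after resection was lost without any 1 of 5 libraries: adjusted p = 0.055, 0.065 and 0.106 without P10 resected 1, 2 and 3, and 0.215 and 0.118 without P2 resected 2 and 3. At baseline F3 was at 7.73, 10.8 and 8.83 CPM at P2 and at 22.9, 19.2 and 32.9 CPM at P10, a ratio of means of 2.73.

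Serpinf1 (chr11:75409769-75422701, minus strand), which codes for a secreted factor known to act against blood vessel growth, had the highest level per kilobase of the 9 genes and was higher at P10 too. It was at 261, 412 and 311 CPM at P2 sham and at 819, 1050 and 1200 CPM at P10 sham. At P2 resected it was at 441, 387 and 459 CPM, and at P10 resected at 906, 1090 and 1010 CPM. Every P10 library was above every P2 library of the same surgery. It rose 3.12-fold between the sham groups (1.64 ± 0.22, SE, adjusted p = 0.000453, edgeR) and 2.33-fold between the resected groups (1.22 ± 0.22, adjusted p = 0.00985). The call after resection was lost without P2 resected 2 (adjusted p = 0.0983) or P2 resected 3 (0.0536). At baseline it was at 288, 252 and 320 CPM at P2 and 597, 887 and 841 CPM at P10, a ratio of means of 2.7.

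Thus 3 of the 9 genes (33.3%) were called higher at P10 in the sham libraries, where 1.54% of all tested genes were called higher, and the same 3 in the resected libraries, where 0.625% were. Of these 3, Serpinf1 encodes no step of coagulation or fibrinolysis outlined above. These shares depend on the fit and on single libraries. In either direction 515 genes were called between the sham groups, 312 to 327 without P2 sham 3, P10 sham 1 or P10 sham 3, 125 with only the groups compared and 1260 by DESeq2. Between the resected groups 139 were called, 88 without P2 resected 1, 30 without P2 resected 2, 43 without P2 resected 3, 51 without P10 resected 3, 332 with only the groups compared and 498 by DESeq2. Without the filter on low counts, edgeR called 911 between the sham groups and 526 between the resected groups. None of the 9 was called lower in either, where 1.65% and 0.235% of all tested genes were. The pair of age comparisons after surgery shares no library with the baseline contrast, but its spread was estimated over all 18 libraries. The genes and comparisons were also chosen with earlier results of these data known, so these shares are not independent of that choice. The median log2 fold change of the 9 genes was 1.62 between the sham groups and 0.18 between the resected groups, and the median over all tested genes was between -0.07 and 0.03 in every comparison.

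**Figure D3:**
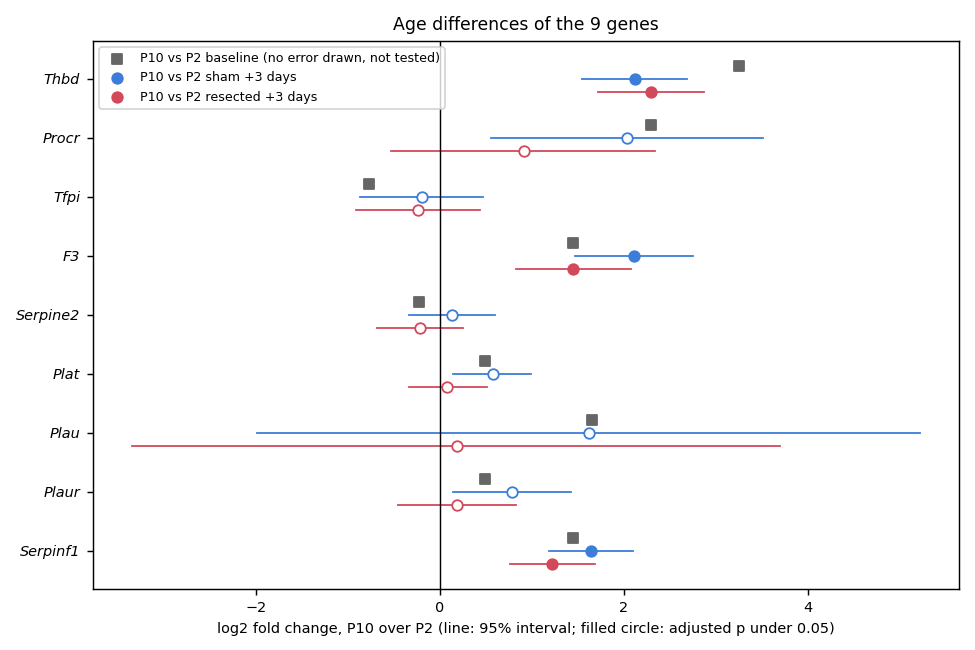
Log2 fold change of the 9 genes at P10 over P2, for the sham groups (blue) and the resected groups (red), with 95% intervals as lines, filled circles where the adjusted p of edgeR was under 0.05. Squares give the baseline ratio without error or test. Thbd, F3 and Serpinf1 are filled in both settings, and the interval of Plau is the widest.

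The partner of thrombomodulin in the protein C pathway, Procr (chr2:155751117-155755471, plus strand), was low and varied more. It was at 2.28, 1.71 and 2.28 CPM at P2 sham and at 6.29, 11.7 and 7.64 CPM at P10 sham, without overlap. After resection the groups overlapped, with 3.81, 2.01 and 6.17 CPM at P2 and 5.37, 4.77 and 12.4 CPM at P10. The sham difference of 2.03 (SE 0.70, log2) did not pass the test (adjusted p = 0.145, edgeR), although DESeq2 called it (adjusted p = 0.0295). The resected difference was 0.91 (SE 0.68, 1.87-fold, adjusted p = 0.87). At baseline it was at 0.921, 0.791 and 3.59 CPM at P2 and at 15.7, 4.82 and 5.43 CPM at P10, and the log2 ratio of 2.29 became 3.33 without the third P2 library and 1.54 without the first P10 library.

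Tfpi (chr2:84432855-84476775, minus strand) did not share the higher level at P10. It was at 151, 128 and 160 CPM at P2 baseline and at 122, 70.9 and 64.5 CPM at P10 baseline, 1.71-fold lower at P10 and the only one of the 9 genes whose baseline groups separated in that direction. After sham surgery it was at 117, 135 and 178 CPM at P2 and at 173, 108 and 92.6 CPM at P10, and the groups overlapped. Its log2 fold change between the ages was -0.20 after sham surgery (adjusted p = 0.836, edgeR) and -0.24 after resection, with intervals from -0.87 to 0.47 and from -0.91 to 0.43.

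Serpine2 (chr1:79794197-79861180, minus strand) was abundant and kept a similar level throughout, from 460 CPM in a P10 resected library to 890 CPM in a P2 resected library. The log2 difference between the ages was 0.13 in the sham libraries (adjusted p = 0.847, edgeR; 95% interval -0.34 to 0.60) and -0.22 in the resected ones (-0.69 to 0.25).

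The plasminogen activators and their receptor gave no call between the ages after surgery. Plat (chr8:22757727-22782844, plus strand) was at 424, 330 and 470 CPM at P2 sham and at 637, 641 and 534 CPM at P10 sham, without overlap (0.57 ± 0.20, SE, adjusted p = 0.164, edgeR). At P2 resected it was at 420, 531 and 647 CPM, which took in most of the P10 resected range of 522, 502 and 668 CPM. Plaur (chr7:24462484-24475968, plus strand) was at 23.6, 26.8 and 30.7 CPM at P2 sham and at 37.3, 55.7 and 46.1 CPM at P10 sham (0.78 ± 0.30, adjusted p = 0.208), and overlapped after resection. Plau (chr14:20836660-20843385, plus strand) had 0 to 49 counts per library and no count in 3 libraries, with a highest level of 2.45 CPM in a P10 sham library. Its log2 difference between the sham ages was 1.62 with a 95% interval from -1.99 to 5.22, and it was 0.83 without P10 sham 1 and 4.31 without P2 sham 2, so a change of several-fold in either direction was not detectable at this depth. Groups separated with P10 higher for 6 of the 9 genes between the sham libraries (9.07% of all tested genes) and for 3 of the 9 between the resected ones (10.6%). At baseline 5 of the 9 separated higher and 1 lower, against 10.3% and 12.1% of all tested genes.

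The endothelial marker list, 9 genes, had summed levels of 185 to 355 CPM at P2 sham and 288 to 510 CPM at P10 sham, and of 245 to 480 and 341 to 539 CPM in the resected groups. None of the 9 markers was called between the ages after surgery. A list of 15 genes known to respond to tissue dissociation summed to 3810 to 10400 CPM at P2 sham, 8280 to 16700 at P10 sham, 4480 to 9560 at P2 resected and 11500 to 18500 at P10 resected, and 1 and 2 of its genes were called higher at P10. The sums of this list did not overlap between the resected groups, and the median log2 fold change of its genes was 0.76 between the sham groups and 0.86 between the resected groups. The cardiomyocyte list, 9 genes, summed to 908 to 1260 CPM at P2 sham and 163 to 815 CPM at P10 sham, without overlap, and to 314 to 918 and 239 to 720 CPM in the resected groups, with none of its genes called. The fibroblast list, 7 genes, summed to 23600 to 30200 CPM at P2 sham and 31000 to 43700 at P10 sham, and to 27700 to 41900 and 43300 to 44700 CPM in the resected groups, without overlap in either setting and with none of its genes called. The macrophage list, 11 genes, overlapped between the ages and had no gene called, and the median log2 fold change of its genes was 1.41 between the sham groups and 1.16 between the resected groups. Red cell and epicardial marker lists had median log2 fold changes of 1.79 and 1.39 between the resected groups, and of -0.56 and -0.99 between the sham groups. None of their genes was called, and the red cell list summed to 43.9 to 115 CPM at P2 resected and 83.5 to 478 CPM at P10 resected. The part of these lists in the differences of Thbd, F3 and Serpinf1 between the ages was not tested.

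A further look at age set P10 baseline beside P2 sham, 5 days apart and without surgery at P10. Thbd was 3.57-fold higher at P10 baseline (1.84 ± 0.27, SE, adjusted p = 0.00451, edgeR), F3 2.41-fold (1.27 ± 0.30, adjusted p = 0.0437) and Serpinf1 2.36-fold (1.24 ± 0.22, adjusted p = 0.00857), where 0.693% of all tested genes were called higher. In either direction 214 genes were called, 65 to 138 without P10 baseline 2 or 3 or P2 sham 2 or 3, 431 and 442 without P10 baseline 1 and P2 sham 1, 1 with only the groups compared and 878 by DESeq2. Without the filter on low counts, edgeR called 549. Plat was 1.75-fold higher (0.81 ± 0.20) with an adjusted p of 0.0588, and of 0.0297 with the replicate number as a block, which makes 4 genes called. The F3 call was lost in 15 of the 18 fits that left out 1 library (adjusted p 0.0507 to 0.188) and without the filter on low counts (0.0983), that of Serpinf1 in 1 of the 18, without P10 baseline 2 (0.0544), and none of the 9 genes was called when only the groups compared were fitted. This comparison uses the P10 baseline libraries by which the genes were chosen, and the ages differ in surgery, so it does not stand alone. The dissociation list summed to 3810 to 10400 CPM at P2 sham and 13400 to 17100 CPM at P10 baseline, with 3 of 15 genes called higher. The endothelial (185 to 355 and 370 to 422 CPM) and fibroblast lists (23600 to 30200 and 35700 to 49100 CPM) were higher too. The cardiomyocyte list was lower (908 to 1260 and 524 to 702 CPM). These sums did not overlap between the groups, and their part in the differences was not tested.

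Resection left the 9 genes without a called change at either age. At P2 the log2 fold changes of resected over sham were -0.04 for Thbd (95% interval -0.60 to 0.51), 0.50 for F3 (-0.13 to 1.12), 0.39 for Serpinf1 (-0.06 to 0.84), 0.38 for Plat (-0.04 to 0.81) and 0.59 for Plaur (-0.05 to 1.23). Procr (0.93, -0.51 to 2.38) and Plau (0.81, -2.74 to 4.36) had the largest values and the widest intervals. The groups overlapped for each of the 9 genes, where 8.47% of all tested genes separated, and 7 of the 9 values were above 0. No gene of the 16170 was called in this comparison (edgeR, adjusted p = 1 for each of the 9, and 730 genes, 4.51%, at an unadjusted p under 0.05), and DESeq2 called none of the 9. Over all genes, DESeq2 called 17 in this comparison and edgeR without the filter on low counts 24.

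At P10 the log2 fold change of resected over sham was 0.14 for Thbd (95% interval -0.41 to 0.69), -0.16 for F3 (-0.78 to 0.45), -0.03 for Serpinf1 (-0.48 to 0.42), -0.10 for Plat (-0.52 to 0.33), -0.10 for Serpine2 (-0.57 to 0.37) and -0.01 for Plaur (-0.65 to 0.63). The groups overlapped for each of the 9 genes, where 8.68% of all tested genes separated, and only Thbd was above 0. Again no gene of the 16170 was called (edgeR, 661 genes, 4.09%, at an unadjusted p under 0.05), nor any of the 9 by DESeq2. Over all genes, DESeq2 called 40, edgeR without the filter 76, and edgeR 5 when P10 sham 2 was left out. The resection effect at P10 minus that at P2 was -0.66 (SE 0.42) for F3, -0.48 (SE 0.29) for Plat, -0.42 (SE 0.30) for Serpinf1 and 0.18 (SE 0.37) for Thbd. The largest values were those of the low genes Plau (-1.44, SE 2.38) and Procr (-1.12, SE 0.96), followed by F3 and by Plaur (-0.60, SE 0.43). It was called for none of the 9 genes and none of the 16170 (adjusted p = 1 in edgeR for each of the 9, 465 genes, 2.88%, at an unadjusted p under 0.05), and for none of the 9 by DESeq2. Over all genes, DESeq2 called 13, edgeR without the filter 30, and edgeR 4 without P10 sham 2.

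**Figure D4:**
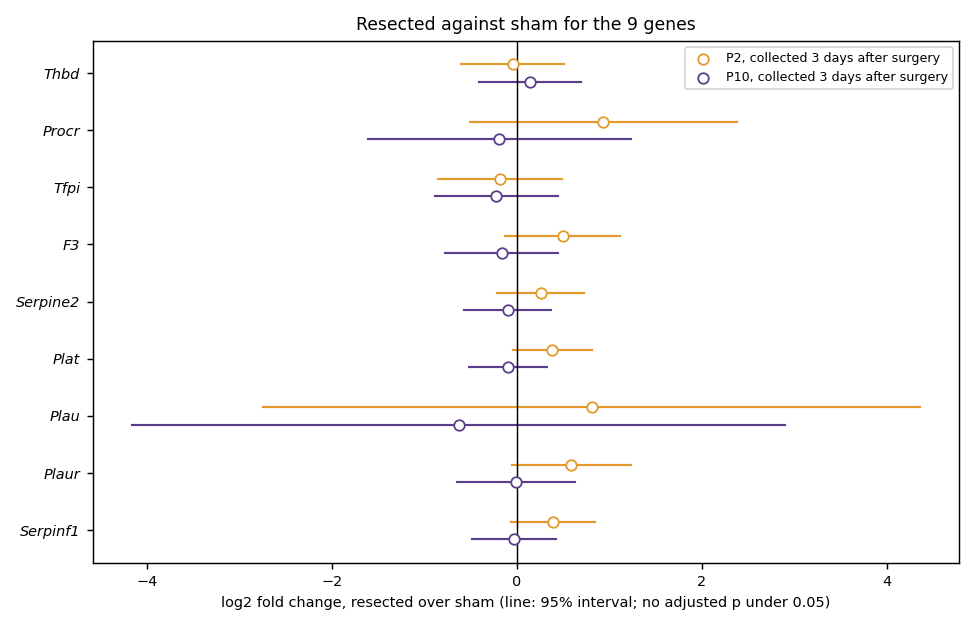
Log2 fold change of resected over sham for the 9 genes at P2 (orange) and P10 (purple), with 95% intervals as lines. All intervals cross 0, and none of the 9 genes was called.

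Set against the un-manipulated hearts, the sham groups differed by the surgery and by 3 days of growth, which cannot be told apart. These comparisons use the baseline libraries whose levels were known when the genes were chosen, Thbd being low at P2 baseline, so their p-values are not independent of that choice. Thbd was 2.66-fold higher at P2 sham than at P2 baseline, without overlap (1.41 ± 0.27, SE, unadjusted p = 6.09e-05, adjusted p = 0.142, edgeR), where 4.48% of all tested genes separated with sham higher. None of the 16170 genes was called in this comparison by edgeR, and 1229 (7.60%) had an unadjusted p under 0.05, while DESeq2 called 172, edgeR without the filter 110 and edgeR 9 without P2 sham 1. DESeq2 called Thbd (adjusted p = 0.000201), as did edgeR without the filter on low counts (0.00374). The other 8 genes differed by -0.32 to 0.25 on the log2 scale, and none of them was called in any of these fits. At P10 it was F3 that separated, from 19.2 to 32.9 CPM at baseline to 38.0 to 49.4 CPM at sham (0.84 ± 0.29, adjusted p = 0.586), Plat separated in the lower direction (-0.24), where 5.34% of all tested genes separated higher and 4.69% lower, and the Thbd groups overlapped (0.28, adjusted p = 0.946). None of the 9 was called there, and 1 gene of the 16170 (0.00618%) was by edgeR, against 162 by DESeq2, 151 by edgeR without the filter, and 5 by edgeR without P10 sham 2 or without P10 resected 3.

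A list of 49 other genes of the coagulation and plasminogen systems set these values in context. Of them 28 were tested, and 11 had no count in any library, among them F2 (prothrombin), F9, F11 and F12, which the liver makes. Plasminogen itself (Plg) had group means of 0.0563 to 1.58 CPM and protein C (Proc) 0 to 0.384 CPM. Receptors and binding proteins of both systems were present in the cells. F2r, the main thrombin receptor, was at 128 to 238 CPM as group means, Anxa2 and S100a10, which together bind plasminogen and Plat, at 1670 to 2060 and 652 to 1220 CPM, and Lrp1, which takes up protease and inhibitor complexes, at 571 to 1390 CPM.

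Of the 28, 1 was called higher at P10 sham than at P2 sham, none between the resected groups and 3 at baseline, and none was called lower. Hs3st1, a sulfotransferase that makes the antithrombin-binding site of heparan sulfate, was at 26.3, 55.2 and 42.6 CPM at P2 sham and at 157, 113 and 144 CPM at P10 sham. These groups did not overlap, and the difference was 3.33-fold (1.74 ± 0.33, SE, adjusted p = 0.00616, edgeR). This call was lost when only the groups compared were fitted (adjusted p = 0.0686). Between the resected groups it was 1.42 ± 0.33 (adjusted p = 0.0503), and it was called there without P2 sham 1, P2 sham 2, P2 resected 1 or P10 baseline 1 (adjusted p 0.0241 to 0.0483), by DESeq2 (0.00188), without the filter (0.00207) and with DESeq2 size factors (0.0457). At baseline Hs3st1 (1.92, adjusted p = 0.00328), Gas6 (1.99, adjusted p = 0.000701) and Mrc2 (1.06, adjusted p = 0.0371) were called by edgeR, where 2.71% of all tested genes were called higher. The pathway list was chosen with earlier results of these data known, so the p-values of its genes are not independent of that choice. In either direction 709 genes were called at baseline, 264 to 435 without P10 baseline 2 or 3 or any 1 of the P2 baseline libraries, 1207 without P10 baseline 1, 295 with only the groups compared and 1653 by DESeq2. Without the filter on low counts, edgeR called 1155. Gas6 codes for a vitamin K-dependent ligand related to protein S, and went from 35.2 ± 3.67 to 140 ± 24.8 CPM. Mrc2 is a collagen receptor that binds the urokinase receptor complex, and its call was lost without any 1 of 6 libraries (adjusted p 0.0513 to 0.145) and with only the groups compared (0.0732). Between the sham groups Gas6 differed by 0.92 (log2) without a call. It was called there with the replicate block (0.90, adjusted p = 0.0289, edgeR) and by DESeq2 (0.91, adjusted p = 0.0239). Between the resected groups Gas6 reached 1.01 (adjusted p = 0.119, edgeR), and 0.038 with the replicate block, which makes 1 gene called there. The median log2 fold change of the 28 was 0.07 between the sham groups, 0.36 between the resected groups and 0 at baseline.

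None of the 28 was called between resected and sham at either age. F2rl1, a receptor cleaved by tissue factor complexes, was at 0.20, 2.65 and 0.519 CPM at P10 sham and 7.06, 0.89 and 0.466 CPM at P10 resected (1.34 ± 0.93, SE, adjusted p = 1, edgeR), a range set by 1 library.

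Across the 18 libraries the genes most like Thbd in log2 CPM were Adamtsl4 (Pearson r 0.982), Pi16 (0.977), Crispld2 (0.976), Pcolce2 (0.972) and Hmcn2 (0.965). Among the 9 genes the correlation with Thbd was 0.92 for F3, 0.91 for Serpinf1, 0.80 for Procr and -0.45 for Tfpi. The libraries fall into 2 ages and share them across genes, so these values describe mainly the step between P2 and P10. Pi16, a marker of adventitial fibroblasts, went from 16.5 ± 3.22 CPM at P2 baseline to 80.1 ± 43.6 at P2 sham, 770 ± 273 at P10 baseline and 1340 ± 145 at P10 sham. Adamtsl4, a protein of microfibrils, went from 45.0 ± 9.99 to 74.0 ± 17.5, 172 ± 1.71 and 192 ± 25.5 CPM over the same groups. Thbd did so from 17.4 to 46.3, 165 and 201 CPM, and in each of the 3 genes P2 sham lay between P2 baseline and P10 baseline.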

How the data were processed

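Bulk RNA-seq counts of 18 libraries, 3 in each of 6 groups, were analysed. RNA was amplified with SMARTer Ultra Low and made into Nextera XT libraries. The authors trimmed single-end reads with fastp 0.20.0, mapped them with STAR 2.7.0f to GRCm38.p6 with GENCODE M22, and counted them per gene with featureCounts of Subread 1.6.4 without regard to strand, and the deposited values are these whole-number counts, not normalized. All 18 count columns were mapped to samples by name.

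Here, counts were scaled by TMM and tested in edgeR 4.0.16 (R 4.3.3) by the quasi-likelihood test, with 1 mean per group over all 18 libraries, on 16170 genes that passed filterByExpr (minimum count 10, minimum total 15) of 28906 with a count. Benjamini-Hochberg adjusted p-values over all tested genes under 0.05 were called. P-values are two-sided and measure the spread between these libraries, whose separate origin was not given. CPM per kilobase used GENCODE M21 lengths of the exons of all transcripts of a gene joined, not of the transcript expressed. Coordinates are from GRCm38. No exon of the 9 genes overlapped another gene.

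The members, lists and comparisons were chosen with earlier results of these data known. The named genes were the 9 members, the called genes of the pathway list, some of its main receptors, and the 5 genes most correlated with Thbd. Part of the pathway list is counted but not reported by gene here. Alternatives were DESeq2 1.42.0, its size factors in edgeR, no filter, only the groups compared, the replicate number as a block, and each library left out.

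Replicate numbers were checked as pairs by the correlation of deviations from group means. Every pair was over 0.1 in 3 of 8 comparisons (P10 against P2 resected, P10 sham against P10 baseline and P10 baseline against P2 sham), where the pairing comes from the data and not from the labels, and blocked values stand beside results whose call they change.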

Additional observations from a re-analysis of the deposited data

How the results depend on the processing

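The calls of Thbd, F3 and Serpinf1 between the sham groups held under all alternatives, the block included (Thbd adjusted p 1.12e-11 to 0.0328), and the Thbd call between the resected groups did too (1.13e-13 to 0.00661). In P10 baseline against P2 sham, DESeq2 called 5 of the 9 genes, the fit of only the groups compared 0, and fits leaving out 1 library 1 to 3. Between the resected groups the fits leaving out 1 library called 1 to 3. In P2 sham against P2 baseline, DESeq2 and the fit without a filter each called 1 of the 9 and 1 pathway gene. Of the pathway genes, the sham ages gave 2 with DESeq2, without a filter and with the replicate block, 0 with only the groups compared and 1 to 2 leaving out 1 library. The resected ages gave 2 with DESeq2, 1 with its size factors, without a filter and with the replicate block, and 0 to 1 leaving out 1 library. P10 baseline against P2 sham gave 1 with DESeq2, 1 without a filter and 0 to 1 leaving out 1 library, P10 sham against P10 baseline 1 without a filter, and the baseline ages 2 to 3 leaving out 1 library and 2 to 4 over the other alternatives. The cause was not tested. With the replicate block, Plaur in P10 resected against sham moved to 0 and Procr in P10 sham against baseline to 0.08 (log2). Over all genes the block gave 1 call in each of the comparisons of resected with sham, where there was none. Beyond these and the values in the report, the block changed no call of the genes named here, and where not every pair was over 0.1 the numbers do not pair the samples. Leaving out 1 library also turned the sign of small log2 values, none of them called. Between the resected ages the ranges were -0.06 to 0.25 for Plat, -0.15 to 0.68 for Plau, -0.02 to 0.49 for Plaur and -0.39 to 0 for Serpine2. In P10 resected against sham they were -1.21 to 0.16 for Plau, -0.14 to 0.14 for Plaur, -0.75 to 0.10 for Procr, -0.29 to 0.13 for Serpine2, -0.17 to 0.10 for Serpinf1, -0.66 to 0.09 for Tfpi, -0.02 to 0.47 for Thbd and -0.70 to 2.95 for F2rl1. In P2 resected against sham they were -0.30 to 0.01 for Tfpi and -0.18 to 0.19 for Thbd, and for the resection effect at P10 minus that at P2 -0.46 to 0.27 and -0.05 to 0.51. In P10 sham against baseline they were -0.91 to 0.46 for Plau, -0.14 to 0.27 for Plaur, -0.31 to 0.74 for Procr and -0.05 to 0.44 for Thbd. In P2 sham against baseline they were -2.74 to 1.84 for Plau, -0.11 to 1.28 for Procr, -0.18 to 0.04 for Serpine2 and -0.22 to 0.09 for Tfpi. Between the sham ages they were -0.01 to 0.26 for Serpine2 and -0.43 to 0.22 for F2r. With 3 libraries a group, genes of low level could differ by several-fold without a call, as Procr did between the sham ages (4.08-fold, adjusted p = 0.145, edgeR).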

Other observations

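A few genes of the pathway lists had low counts mainly in resected libraries, and they were singled out after their values were seen. F10, which codes for coagulation factor X, had 74 counts in 4 of the 6 resected libraries and 0 counts in the 12 sham and baseline libraries. F7 had 28 counts in 3 of the 6 resected libraries and 0 in the 12 others. Serpinb2, an inhibitor of urokinase made by macrophages, had 176, 31 and 65 counts in the P10 resected libraries, 9 counts in 1 P2 resected library, 32 counts in 1 P10 sham library and none in the others. Neither of those that were tested (F10 and Serpinb2) was called between resected and sham at either age by edgeR. The macrophage marker list, 11 genes, summed to 65.7 to 443 CPM at P2 resected and 69.2 to 1080 CPM at P10 resected, against 5.29 to 183 CPM at P2 sham and 89.2 to 350 CPM at P10 sham, with none of its genes called. The median log2 fold change over the genes of a list, P10 resected over P10 sham, was 3.71 for the epicardial list and 1.47 for the endothelial. It was 1.36 for the red cell and 1.22 for the macrophage list, and none of their genes was called. The sums of these lists overlapped between the groups. The epicardial sums were 1110 to 2100 CPM at P10 resected and 963 to 1400 CPM at P10 sham. The endothelial sums were 341 to 539 and 288 to 510 CPM, with a lower median at P10 resected (384 against 432 CPM). The red cell list summed to 83.5 to 478 CPM at P10 resected and 66.9 to 139 CPM at P10 sham. The part of these cell types in the counts was not tested.

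At baseline the mural cell list summed to 463 to 650 CPM at P2 and 850 to 1560 CPM at P10, and the fibroblast list to 22000 to 27200 and 35700 to 49100 CPM, both without overlap. The dissociation list summed to 6790 to 7730 CPM at P2 and 13400 to 17100 CPM at P10, and the endothelial list to 229 to 361 and 370 to 422 CPM, again without overlap. There 4 of 9 mural cell markers, 2 of 7 fibroblast markers, 3 of 15 dissociation genes and 1 of 9 endothelial markers were called higher at P10 than at P2, and their part in the baseline ratios of Thbd, F3 and Serpinf1 was not tested. The cardiomyocyte list summed to 1090 to 1470 CPM at P2 baseline and 524 to 702 CPM at P10 baseline, also without overlap, the platelet list to 11.5 to 25.2 and 9.77 to 30.7 CPM, the red cell list to 25.0 to 47.2 and 46.8 to 158 CPM, and the epicardial list to 798 to 922 and 915 to 1110 CPM, with none of their genes called in any comparison.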
